A study of Mus musculus with 6 samples.

Results

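A set of 40 genes that drive cells through mitosis was followed in mouse breast cancer cells sorted by their uptake of acetylated low-density lipoprotein (acLDL). The set holds the mitotic cyclins and kinases, the machinery that separates sister chromatids, spindle proteins and cytokinesis regulators. The genes were chosen by symbol for their known roles, at a time when earlier results of these data were known. All 40 were found among the 15973 protein-coding genes compared. All 40 also passed the filter on low counts, with between 1239 and 84543 reads per gene and library. The cells were 4T1-T, a VM-proficient sub-clone of the 4T1 mouse mammary carcinoma line, where VM stands for vasculogenic mimicry, the formation of vessel-like networks by tumour cells. As a single clone, it stands for neither the parental line nor other tumours. Before sorting, every culture was starved of serum overnight, given acLDL labelled with the fluorophore Alexa-488 at 10 ug/mL for 4 h, washed, and returned to complete growth medium for 1 h. The 25% of cells with the most fluorescence formed the acLDL-high population and the 25% with the least formed the acLDL-low population. Per the design text the experiment was done on 3 occasions, and RNA of both populations was sequenced as replicates 1, 2 and 3. Both populations share the starvation, the lipoprotein and the sort, and unlabelled or unsorted cells were not analysed here.

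Entry into mitosis is driven by cyclin-dependent kinase 1 (Cdk1) bound to its A- and B-type cyclins, and it is sharpened by Cdc25 phosphatases and by the Polo-like and Aurora kinases. The anaphase-promoting complex (APC/C), a ubiquitin ligase, then marks cyclin B and securin for destruction, which lets separase free the sister chromatids, and the central spindle and a contractile ring divide the cell. Transcripts of most of these genes rise late in the cycle, and their promoters are textbook targets of the MuvB complex with B-Myb and FoxM1, through the cell cycle genes homology region and through CCAAT boxes that bind the factor NF-Y.

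Promoter stretches of 4 members are shown. The stretches carry CCAAT, with the homology letters as well in those of Cdc20 and Ube2c. They belong to genes at both ends of the measured range, Ube2c with the largest difference between the populations and Cdc20 with one of the smallest. The capitals mark CCAAT, which reads ATTGG where it lies on the other strand. They also mark the core of the homology region, TTTGAA, which then reads TTCAAA. The sequences are those of RefSeq on GRCm38.p6, read along the strand of the gene, upstream of its RefSeq start. The GENCODE start lies inside the stretch for Ccnb1, Cdc20 and Ube2c, at -84, -9 and -31 relative to the RefSeq start. By GENCODE, the last CCAAT of Ccnb1 and of Cdc20 and the TTCAAA of Ube2c thus lie within the gene. In Plk1, TTTGAA lies at 31 to 36, past the RefSeq start and so outside its stretch. The stretch of Ccnb1 is chr13:100786541-100786660, on the minus strand. That of Cdc20 is chr4:118437344-118437463, also minus. Plk1 is shown at chr7:122159315-122159434 and Ube2c at chr2:164769808-164769927, both on the plus strand.
Ccnb1: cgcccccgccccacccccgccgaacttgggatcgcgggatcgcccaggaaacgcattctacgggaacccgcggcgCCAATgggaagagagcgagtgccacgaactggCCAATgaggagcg
Cdc20: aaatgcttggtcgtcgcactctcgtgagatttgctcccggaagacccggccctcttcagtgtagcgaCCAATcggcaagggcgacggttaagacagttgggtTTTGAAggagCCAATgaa
Plk1: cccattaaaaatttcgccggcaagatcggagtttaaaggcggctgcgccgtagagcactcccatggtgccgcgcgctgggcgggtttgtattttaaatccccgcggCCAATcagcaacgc
Ube2c: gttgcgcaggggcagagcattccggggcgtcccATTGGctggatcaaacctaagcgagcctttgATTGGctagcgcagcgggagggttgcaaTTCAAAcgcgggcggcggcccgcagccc

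A promoter window, from 250 bases before to 50 bases after the RefSeq start, was found by symbol for 34 of the 40 genes. None was used for Ccna2, Cdc25c, Aurkb, Tpx2, Dlgap5 or Pbk. On either strand, TTTGAA was present in 21 of the 34 windows (61.8%), against 11.6% of the 9851 tested genes with a window. CCAAT was present in 27 (79.4%), against 39.2%. Both were present in 19 (55.9%), against 4.97%. The letters of the E2F site associated with S phase genes (TTTCCCGC, TTTGGCGC or TTTCGCGC) were found only in the window of Cdk1 among the 34, and in 3.67% of the tested genes. Among 16 S phase genes with a window, by contrast, TTTGAA was present in 12.5% and an E2F form in 43.75%. For CCAAT there was no such contrast, with a match in 12 of these 16 windows beside 27 of the 34. TTTGAA stood in 13 of the 24 windows of genes called higher in acLDL-high cells and in 8 of the 10 windows of genes not called. A match is a run of letters and not a measured binding site. The 3 kinds of letters were searched separately, and neighbouring matches of different kinds can share at most 1 base.

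**Figure D1:**
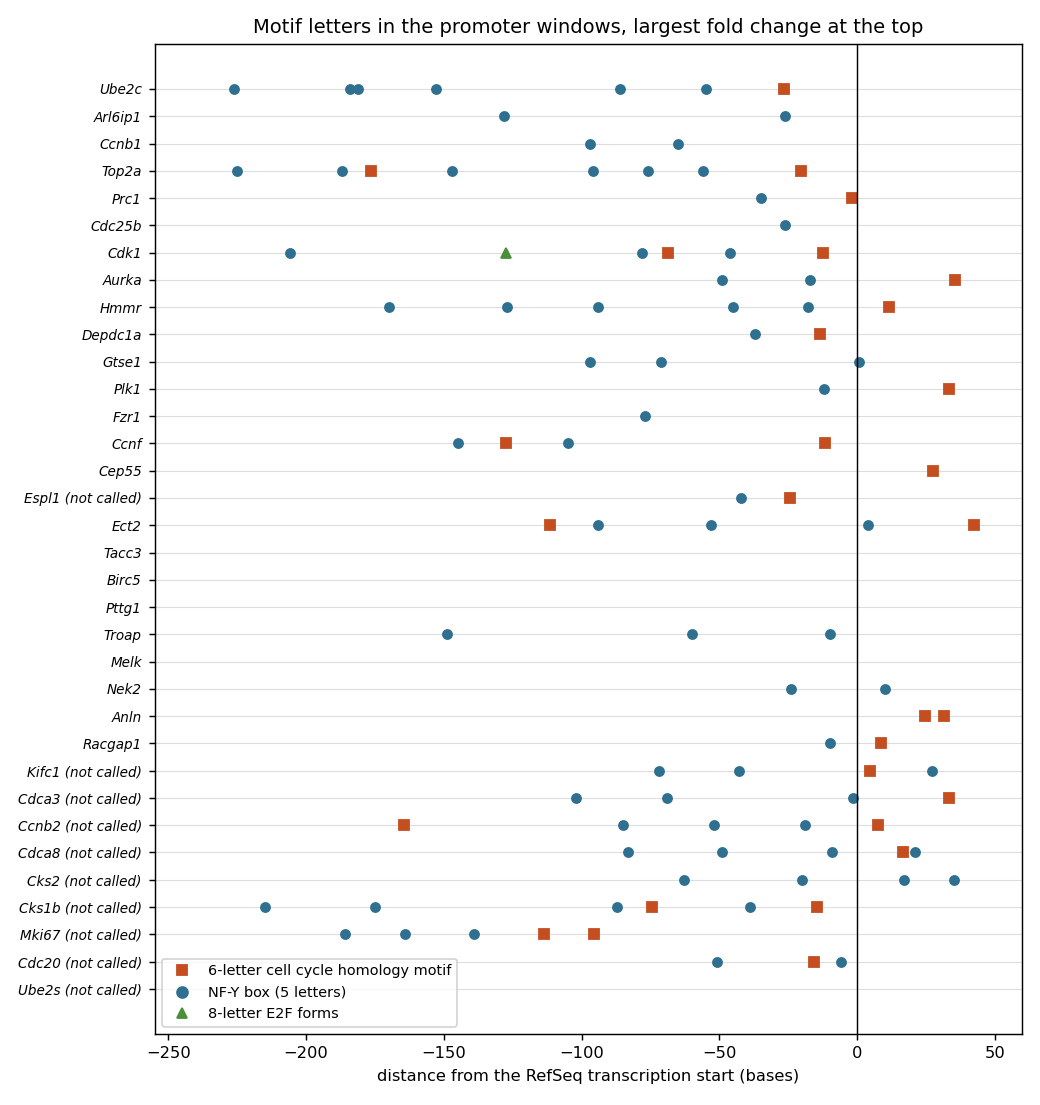
Positions of the letters in the promoter windows of the 34 genes that have one, with the distance in bases from the RefSeq start on the horizontal axis and genes ordered by fold change, the largest at the top. Each mark is a match on either strand, a square for TTTGAA, a circle for CCAAT and a triangle for an E2F form. TTTGAA lies in 21 of the windows and CCAAT in 27, and windows with TTTGAA stand both at the top and at the bottom of the order.

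To ask whether cells with high and low acLDL uptake differ in their mitotic transcripts, counts of acLDL-high and acLDL-low cells were set against each other within each replicate number by the quasi-likelihood test of edgeR, in which the replicate number was a block. Of the 40 genes, 27 (67.5%) were higher in acLDL-high cells at an adjusted p (Benjamini-Hochberg over all 12572 genes tested) under 0.05, and 0 were lower. Over all genes tested, 4.75% passed by the same rule, 3.43% higher and 1.32% lower. Because the list was chosen with earlier results known, its share describes the list and is not a test of it. All 40 fitted differences were positive, and their median was 0.23 on the log2 scale, against 0.0017 over all genes. The differences were small: the 27 genes that rose did so by 12.5% to 47.2%, a log2 fold change of 0.17 to 0.56, and the other 13 had values of 0.05 to 0.23. Standard errors lay between 0.04 and 0.07. In RNA from pooled cells, a larger share of mitotic cells and more of these transcripts per cell cannot be told apart.

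**Figure D2:**
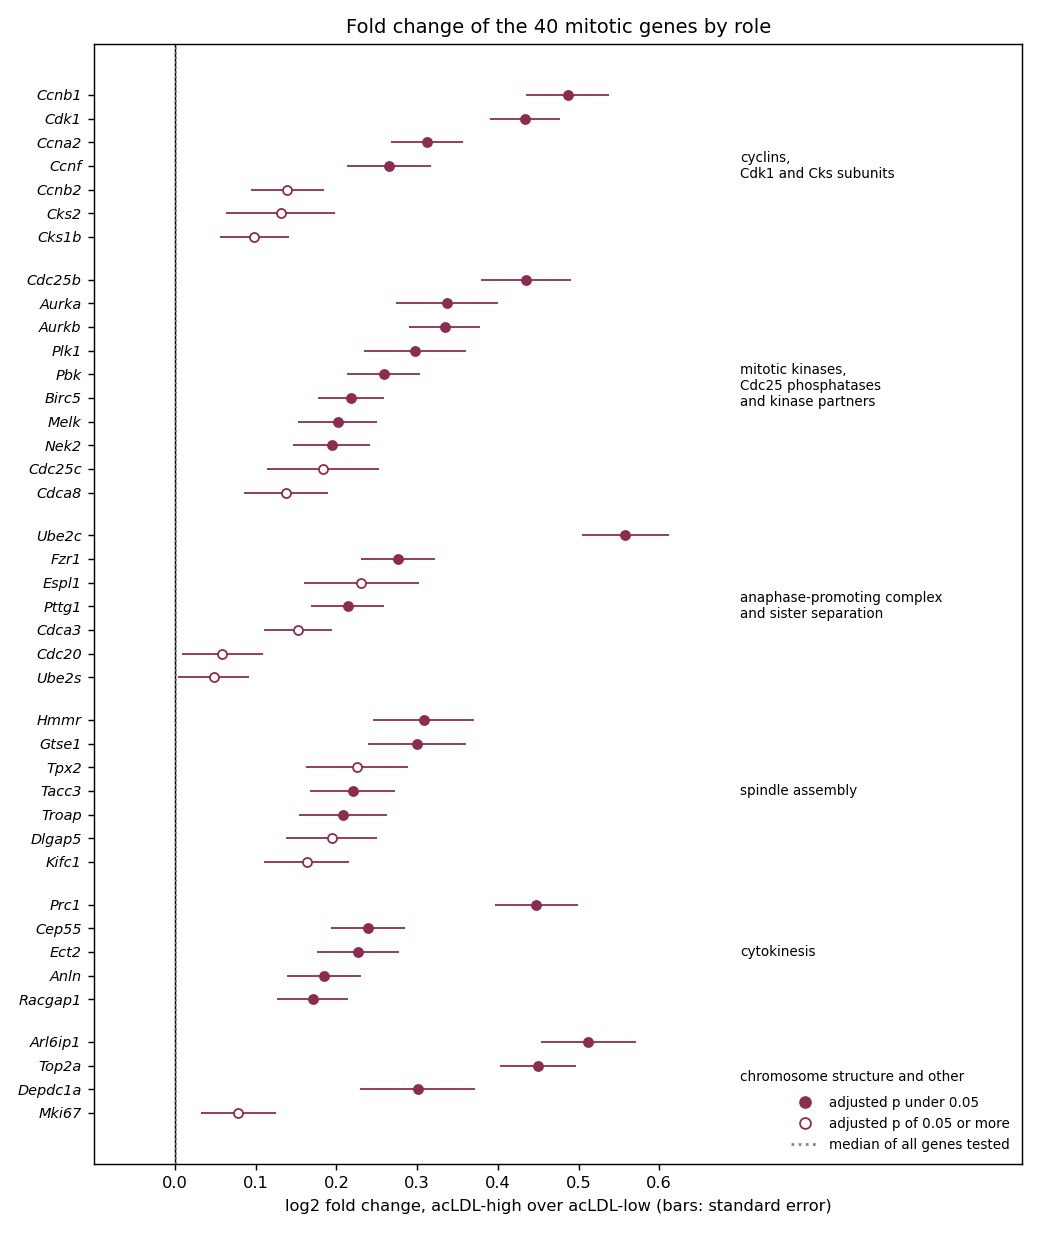
Log2 fold change of each of the 40 genes, acLDL-high over acLDL-low, grouped by role, with bars for the standard error of the edgeR fit. Filled points had an adjusted p under 0.05 and open points did not, and all points lie to the right of 0, from 0.05 for Ube2s to 0.56 for Ube2c.

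Levels are given below as CPM (library-scaled counts, by the TMM method), in replicates 1, 2 and 3. The replicates differed among themselves by more than the populations did. Between the highest and the lowest acLDL-low library, a member moved by a median of 0.45 on the log2 scale, and for 31 of the 40 genes this range was larger than the fold change between populations. The test therefore rests on the comparison within each replicate number. In the acLDL-low cells 28 of the genes had their lowest level in replicate 3, and none had its highest there. For this and for the range, the share over all genes was not counted. For 7 genes (17.5%), Ccnb1, Cdc25b, Fzr1, Ube2c, Tacc3, Hmmr and Prc1, all 3 acLDL-high libraries lay above all 3 acLDL-low libraries, which held for 1.23% of all genes tested.

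Among the cyclins and their kinase, 4 of 7 genes rose: Ccnb1, Cdk1, Ccna2 and Ccnf. Cyclin B1 (Ccnb1, ENSMUSG00000041431, chr13:100778650-100786570), the activating partner of Cdk1 at mitotic entry, was at 81.0, 72.3 and 59.2 CPM in acLDL-low and 102, 107 and 87.5 CPM in acLDL-high cells. The populations did not overlap. Its log2 fold change was 0.49 (SE 0.05, edgeR adjusted p = 0.000212), an increase of 40.1%.

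Cdk1 itself (ENSMUSG00000019942, chr10:69335146-69352938) was at 133, 162 and 110 CPM in acLDL-low and 170, 220 and 156 CPM in acLDL-high cells. Every acLDL-high library exceeded its partner, although the populations overlapped. It had the smallest p-value of this group, with a log2 fold change of 0.43 (SE 0.04, edgeR adjusted p = 0.000155). Cyclin A2 (Ccna2, ENSMUSG00000027715), which acts in S phase and G2, had the highest CPM of the group, with 231, 237 and 167 in acLDL-low and 268, 303 and 216 in acLDL-high cells. It rose by 24.1% (log2 fold change 0.31, edgeR adjusted p = 0.00187). Cyclin F (Ccnf), the substrate receptor of a ubiquitin ligase rather than a Cdk partner, rose by 20.2%.

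Cyclin B2 (Ccnb2), the other B-type cyclin, did not pass the test, with a log2 fold change of 0.14 (SE 0.05, edgeR adjusted p = 0.110). Nor did the small Cdk-binding subunits. Cks1b was at 88.3, 107 and 75.1 CPM in acLDL-low and 92.9, 120 and 77.7 CPM in acLDL-high cells, with a log2 fold change of 0.10, the lowest of the group, and Cks2 had 0.13. The replicates of Cks1b spread further apart than its populations did.

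The regulators of mitotic entry and the chromosomal passenger complex gave 8 increases among 10 genes. Cdc25b, a phosphatase that removes the inhibitory phosphates from Cdk1, was at 98.3, 81.4 and 90.4 CPM in acLDL-low and 121, 126 and 117 CPM in acLDL-high cells. The populations were separate, and the rise of 35.2% had the smallest p-value of the group (log2 fold change 0.44, SE 0.06, edgeR adjusted p = 0.000832). Its relative Cdc25c was the least expressed of all 40 genes per length of exon, with a log2 fold change of 0.18 (edgeR adjusted p = 0.169).

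Polo-like kinase 1 (Plk1, ENSMUSG00000030867, chr7:122159439-122169873), which acts from mitotic entry to cytokinesis, was at 110, 101 and 94.3 CPM in acLDL-low and 122, 147 and 108 CPM in acLDL-high cells. The library of acLDL-high replicate 3 fell below acLDL-low replicate 1, so the populations overlapped. It rose by 22.9% (log2 fold change 0.30, edgeR adjusted p = 0.0186). Aurora A (Aurka), the kinase of the spindle poles, was at 97.6, 73.9 and 78.0 CPM in acLDL-low and 110, 110 and 93.7 CPM in acLDL-high cells. It rose by 26.3% (log2 fold change 0.34, edgeR adjusted p = 0.00970). Aurora B (Aurkb), the catalytic subunit of the chromosomal passenger complex, rose by 26.1% with a smaller adjusted p of 0.000983 from edgeR.

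Survivin (Birc5), another subunit of that complex, had the highest CPM of the group, at 110, 155 and 111 in acLDL-low and 125, 185 and 129 in acLDL-high cells, a log2 fold change of 0.22 (edgeR adjusted p = 0.00919). Borealin (Cdca8), a further subunit, was at 116, 121 and 94.1 CPM in acLDL-low and 116, 147 and 103 CPM in acLDL-high cells, with a log2 fold change of 0.14, and it did not pass the test (edgeR adjusted p = 0.167). In replicate 1 its level was the same in both populations to 3 digits. The kinases Nek2, Melk and Pbk rose, with log2 fold changes of 0.19, 0.20 and 0.26. Their edgeR adjusted p-values were 0.0384, 0.0353 and 0.00680.

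Of 7 genes of the APC/C and sister separation, 3 rose: Ube2c, Fzr1 and Pttg1. Ube2c (ENSMUSG00000001403, chr2:164769898-164778822), the E2 enzyme that begins ubiquitin chains for the APC/C, had the largest fold change of the 40 genes. It was at 113, 92.4 and 81.6 CPM in acLDL-low and 152, 153 and 117 CPM in acLDL-high cells, with no overlap. The log2 fold change was 0.56 (SE 0.05, edgeR adjusted p = 0.000119), an increase of 47.2%. Ube2s, the E2 enzyme that extends those chains, had the smallest fold change of the 40. It was at 72.2, 90.3 and 67.5 CPM in acLDL-low and 73.9, 89.7 and 73.4 CPM in acLDL-high cells (log2 fold change 0.05, SE 0.04, edgeR adjusted p = 0.604).

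Cdc20 (ENSMUSG00000006398, chr4:118432901-118437352), the activator that turns the APC/C on at anaphase, had the highest CPM of the group. Its levels were 187, 136 and 118 CPM in acLDL-low and 180, 158 and 120 CPM in acLDL-high cells, and it was lower in acLDL-high cells in replicate 1 and higher in replicate 2. The log2 fold change was 0.06 (SE 0.05, edgeR adjusted p = 0.578). Fzr1, also called Cdh1, the activator that keeps the APC/C on from late mitosis into G1, rose by 21.1%, and its populations did not overlap, with an edgeR adjusted p of 0.00474. Securin (Pttg1), the inhibitor of separase, rose by 16.0% (edgeR adjusted p = 0.0187). Separase itself (Espl1) had a log2 fold change of 0.23, but its SE of 0.07 was among the largest, and neither it (edgeR adjusted p = 0.0927) nor Cdca3, a protein tied to mitotic entry (0.15, edgeR adjusted p = 0.0581), passed the test.

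Of 7 spindle genes 4 rose: Gtse1, Hmmr, Troap and Tacc3. Gtse1, a microtubule-binding protein, was at 35.8, 34.5 and 29.9 CPM in acLDL-low and 41.1, 48.7 and 34.4 CPM in acLDL-high cells, and had the smallest p-value of the group. It rose by 23.0% (log2 fold change 0.30, edgeR adjusted p = 0.0145), and its populations overlapped. Hmmr, a spindle-associated protein, and Tacc3, which binds kinetochore fibres, had separate populations, with increases of 23.8% and 16.5%. Troap, a microtubule-associated protein, rose by 15.5% (edgeR adjusted p = 0.0458).

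Tpx2, which activates Aurora A on the spindle, had the highest CPM of these genes. It was at 237, 175 and 164 CPM in acLDL-low and 235, 231 and 200 CPM in acLDL-high cells, so replicate 1 showed almost no difference. Its log2 fold change of 0.23 had an edgeR adjusted p of 0.0626. Dlgap5, which stabilises kinetochore fibres, also missed the threshold (0.19, edgeR adjusted p = 0.0738). Kifc1, a motor that draws spindle poles together, had the lowest value of the group, with 43.9, 37.0 and 39.3 CPM in acLDL-low and 46.2, 45.3 and 42.7 CPM in acLDL-high cells (log2 fold change 0.16, edgeR adjusted p = 0.106). Its transcript is 96.5% identical over 2333 bases to Kifc5b, whose total count was 58.4% of that of Kifc1, so reads may be divided between them and the value of Kifc1 is uncertain.

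All 5 cytokinesis genes rose. Prc1 (ENSMUSG00000038943, chr7:80294450-80316259), which bundles the microtubules of the central spindle, was at 221, 189 and 194 CPM in acLDL-low and 270, 278 and 274 CPM in acLDL-high cells. No libraries overlapped, and the log2 fold change was 0.45 (SE 0.05, edgeR adjusted p = 0.000394), an increase of 36.4%. Anillin (Anln), a scaffold of the contractile ring, had the highest CPM here, at 606, 650 and 490 in acLDL-low and 646, 758 and 580 in acLDL-high cells, and rose by 13.7% (log2 fold change 0.19, edgeR adjusted p = 0.0382). Racgap1, a central spindle subunit that binds Ect2, had the lowest value, with 188, 212 and 190 CPM in acLDL-low and 199, 249 and 217 CPM in acLDL-high cells. It rose by 12.5% (log2 fold change 0.17, edgeR adjusted p = 0.0449). Ect2, which acts at the equator of the dividing cell, rose by 17.0%, and Cep55, which recruits the abscission machinery to the midbody, by 18.0%. The edgeR adjusted p-values of these genes were 0.0254 and 0.0107.

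Among the remaining 4 genes, Top2a (ENSMUSG00000020914, chr11:98992943-99024189), the topoisomerase that disentangles sister chromatids, was the most abundant of the 40 by CPM. It was at 642, 832 and 613 CPM in acLDL-low and 819, 1176 and 867 CPM in acLDL-high cells, higher in every pair though not separate. The log2 fold change was 0.45 (SE 0.05, edgeR adjusted p = 0.000196). Mki67 (ENSMUSG00000031004, chr7:135689784-135716361), the antigen of the Ki-67 proliferation stain and a coat of mitotic chromosomes, was at 681, 640 and 572 CPM in acLDL-low and 673, 715 and 609 CPM in acLDL-high cells. Its log2 fold change was 0.08 (SE 0.05, edgeR adjusted p = 0.397), and in replicate 1 it was lower in acLDL-high cells. Arl6ip1, a protein that shapes the endoplasmic reticulum, rose by 42.6% (log2 fold change 0.51, edgeR adjusted p = 0.000394), and Depdc1a by 23.2% (edgeR adjusted p = 0.0324).

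**Figure D3:**
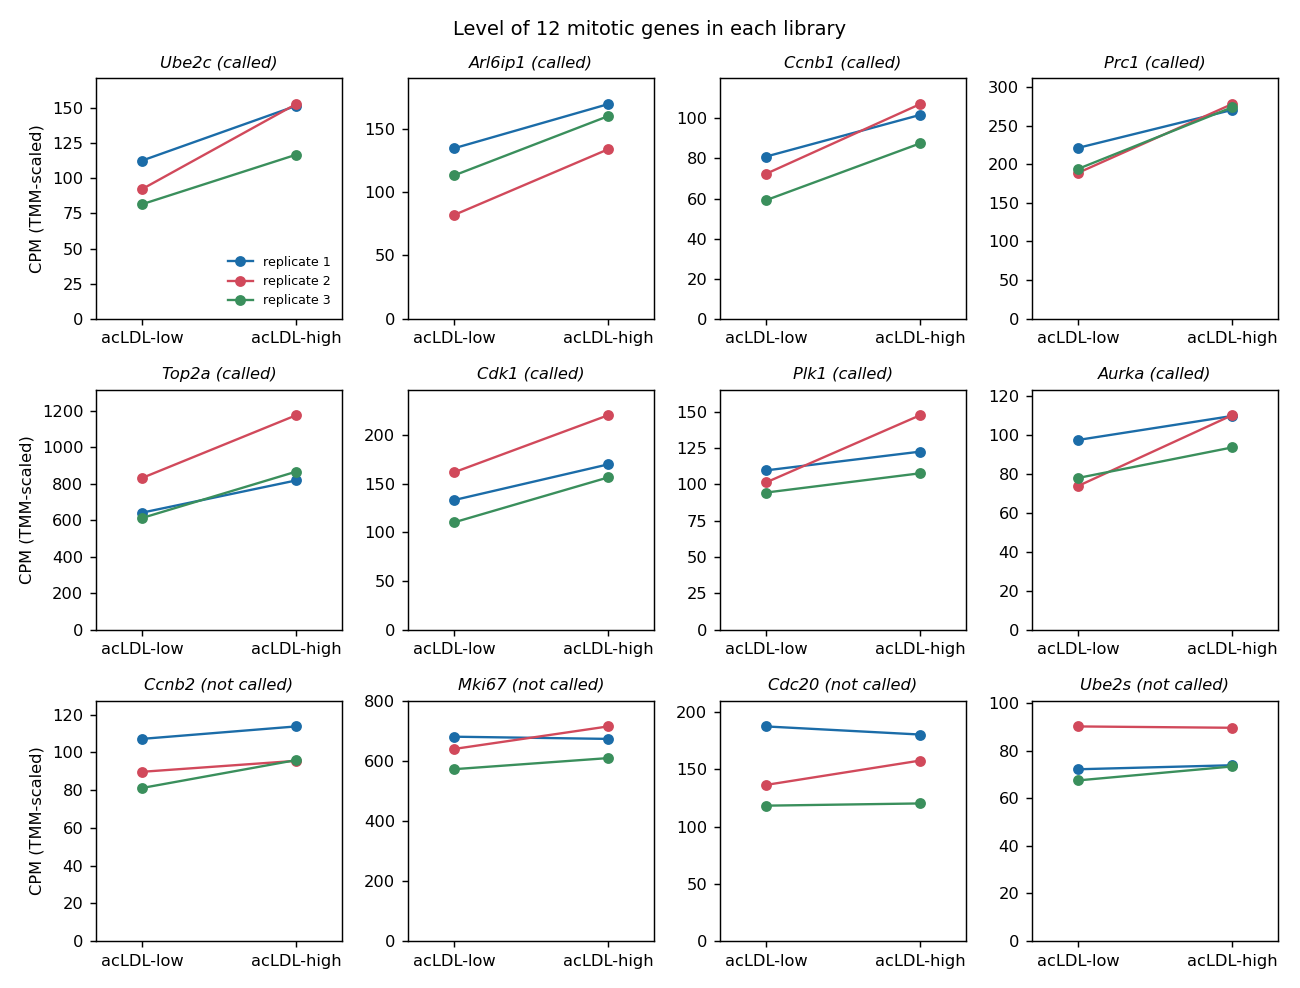
Level of 12 of the genes in each library, in CPM on the vertical axis, with acLDL-low on the left and acLDL-high on the right and a line joining the libraries of each replicate number. The lines of Ube2c rise from 81.6–113 CPM to 117–153 CPM, whereas for Mki67 and Cdc20 the line of replicate 1 falls.

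Genes with related roles thus sat at different points of the range, and ratios within a library, in which scaling cancels, were taken for pairs of them chosen after their values were seen, with no test. The log2 ratio of Ccnb1 to Ccnb2 was higher in acLDL-high cells by 0.24, 0.48 and 0.32 in replicates 1, 2 and 3. That of Ube2c to Ube2s was higher by 0.40, 0.74 and 0.40, and that of Top2a to Mki67 by 0.37, 0.34 and 0.41. The ratio of Fzr1 to Cdc20 was higher by 0.24, 0.14 and 0.28. All 3 replicates moved in 1 direction in each of these pairs of genes. For Aurka over its activator Tpx2 they did not, with 0.18, 0.18 and -0.02.

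Levels between genes were compared as CPM per kilobase of exon in acLDL-low cells. Exon length was that of the merged exons of all GENCODE transcripts of a gene, so the order depends on the annotation. Cks1b (79.9 ± 14.0, SD, n = 3), Cdc20 (78.9 ± 19.2) and Top2a (77.2 ± 13.2) were the highest and did not differ beyond their spread. Cdc25c (4.91 ± 0.97, SD, n = 3) and Depdc1a (6.07 ± 0.67) were the lowest. By mean CPM in acLDL-low cells, without the length, Depdc1a (20.2) lay below Cdc25c (24.2). The transcript of Depdc1a is 99.7% identical over 2421 bases to the pseudogene Gm5596, so its level is uncertain. In acLDL-high cells Top2a reached 106 ± 21.5 while Cks1b was at 86.0 ± 18.9.

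The differences were unequal between the replicates. The median difference over the 40 genes, acLDL-high minus acLDL-low in log2 CPM, was 0.11 in replicate 1, 0.35 in replicate 2 and 0.25 in replicate 3. It was positive for 34, 39 and 40 genes respectively, where 54.8%, 47.4% and 49.8% of all genes tested were positive. In all 3 pairs 33 genes were higher, against 20.9% of all genes. For 37 genes the difference was larger in replicate 2 than in replicate 1, and for 37 it was larger in replicate 3 than in replicate 1. These orders were not counted over all genes. Summed over the 40 genes, the level was 5634, 5628 and 4684 CPM in acLDL-low and 6248, 7186 and 5734 CPM in acLDL-high cells, which is 1.11, 1.28 and 1.22 times as much. Genes of S phase behaved differently across the same pairs: the sum of 20 of them was 1888, 3944 and 1612 CPM in acLDL-low and 2142, 3486 and 1605 CPM in acLDL-high cells, or 1.13, 0.884 and 0.996 times as much. Replicate 2 thus stood apart in both populations, with its S phase sum far above those of the other replicates. Within replicate 1 the median difference was 0.18 for the S phase genes beside 0.11 for the mitotic genes, and within replicate 2 it was -0.21 beside 0.35. What differed between the replicates was not tested.

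**Figure D4:**
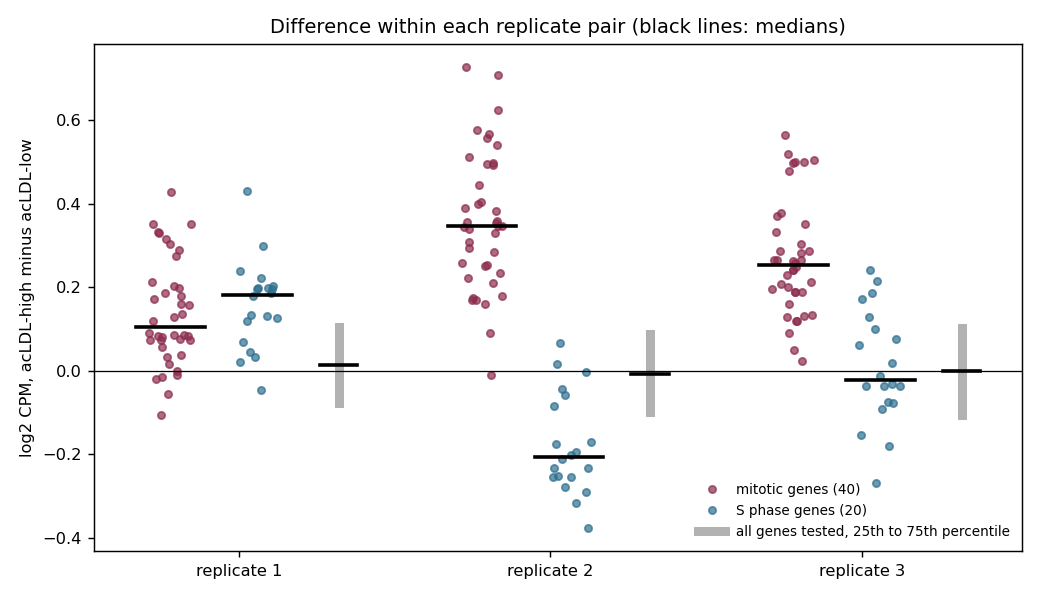
Difference in log2 CPM, acLDL-high minus acLDL-low, within each replicate pair, with a point per gene for the 40 mitotic genes and for 20 S phase genes, black lines for medians and a grey bar from the 25th to the 75th percentile of all genes tested. The mitotic medians are 0.11, 0.35 and 0.25, and the S phase medians 0.18, -0.21 and -0.021.

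**Figure D5:**
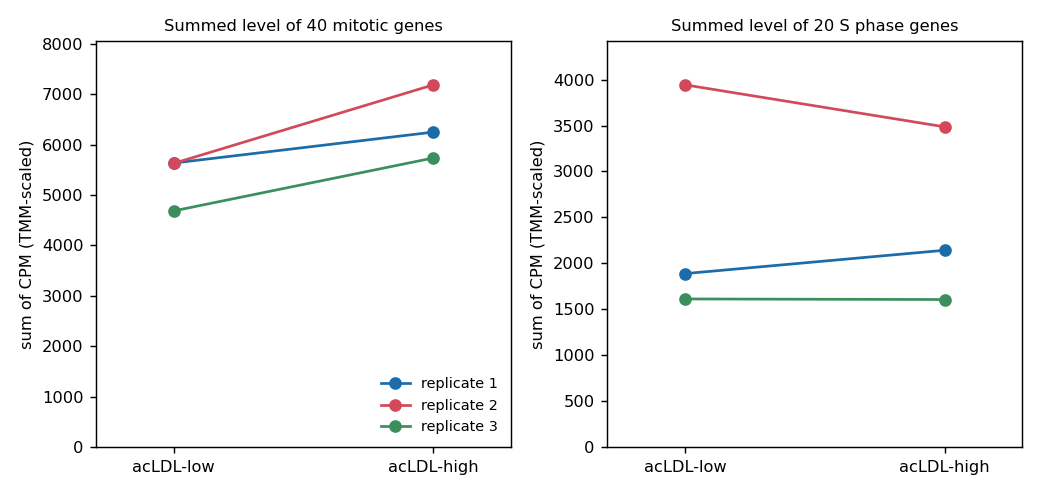
Summed CPM of the 40 mitotic genes and of 20 S phase genes in each library, with acLDL-low on the left and acLDL-high on the right and a line per replicate number. The mitotic sum rises in every pair, from 4684–5634 to 5734–7186 CPM, and the S phase sum does so only in replicate 1.

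The number of calls depends on the pairing and on replicate 3. Without the replicate block, 0 of the 40 genes and 0 of all genes passed, with 7 and 45 at an unadjusted p under 0.05 in edgeR. Without replicate 3, 8 of the 40 passed, in a fit in which 0.902% of all genes were called higher. Leaving out replicate 1 gave 34 (3.55% of all genes higher) and leaving out replicate 2 gave 22 (4.82%). At an adjusted p under 0.01, 13 passed (1.36%). The 8 genes called without replicate 3 were Ccnb1, Cdk1, Cdc25b, Aurkb, Ube2c, Prc1, Top2a and Arl6ip1. They were also called without replicate 1 and without replicate 2, a condition whose share over all genes was not counted. No member was called lower in any of these fits. Other scalings gave 28 with DESeq2's size factors (3.86% of all genes higher) and 24 with the upper quartile (2.98%). DESeq2 and limma-voom, both with the block, gave 27 each (3.32% and 3.42%). The number was 32 with no filter on low counts (4.19%), 27 with at least 10 counts required in every library (3.60%) and 29 over all gene IDs (3.06%).

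The regulators around these genes were examined in 6 further lists. Of all genes tested, 3.43% were called higher and 1.32% lower. In lists this short, a count of 0 or 1 does not set a list apart from those shares. A list of 15 genes held MuvB subunits, B-Myb and FoxM1, the textbook regulators named above. It also held the NF-Y subunits and E2f4, E2f5, Tfdp1, Rbl1 and Rbl2. Of the 15, 1 was higher and 0 lower: Lin54, a DNA-binding MuvB subunit. Lin54 was at 38.2, 47.6 and 29.95 CPM in acLDL-low and 42.0, 55.0 and 35.0 CPM in acLDL-high cells (log2 fold change 0.19, edgeR adjusted p = 0.0373). Foxm1 had a log2 fold change of 0.09 (edgeR adjusted p = 0.249) and B-Myb (Mybl2) of 0.05 (edgeR adjusted p = 0.608). The median over these 15 was 0.03. Of 17 core subunits and inhibitors of the APC/C, 0 passed in either direction, and the smallest p-values belonged to the subunits Anapc10 (0.20, edgeR adjusted p = 0.127) and Cdc27 (0.08, edgeR adjusted p = 0.341).

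Of 12 genes that control mitotic entry through Cdk1 and Plk1, checkpoint kinases or the PP2A arm, some as brakes and some as activators, 3 rose and 0 fell. Wee1, the kinase that holds Cdk1 inactive, had a log2 fold change of 0.20 (edgeR adjusted p = 0.0416). Bora, which helps Aurora A activate Plk1, had 0.27 (edgeR adjusted p = 0.0122). Mastl, the Greatwall kinase that leads to inhibition of PP2A, had 0.30 (edgeR adjusted p = 0.00809), at 60.3, 42.2 and 42.9 CPM in acLDL-low and 66.2, 54.8 and 56.8 CPM in acLDL-high cells.

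Genes of earlier phases were read in the same way, beside shares of 3.43% higher and 1.32% lower over all genes tested. A list of 12 genes of G1 and S held cyclins, Cdks, E2F genes and the phosphatase Cdc25a. Of these, 0 rose and 1 fell, E2f2. It was at 18.3, 24.9 and 18.2 CPM in acLDL-low and 15.5, 19.1 and 13.8 CPM in acLDL-high cells (log2 fold change -0.34, edgeR adjusted p = 0.00820). Of 20 S phase genes, 0 rose and 1 fell, the replication licensing factor Cdt1 (-0.19, edgeR adjusted p = 0.0458). The median of the S phase list was -0.014. Of 4 Cdk inhibitors tested, 1 rose, Cdkn2c, which blocks the G1 kinases (0.23, edgeR adjusted p = 0.0287).

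The carcinoma markers Epcam, Krt8, Krt18, Krt19, Krt14 and Cdh1 (E-cadherin) summed to between 2648 and 4168 CPM, and 0 of the 6 passed the test. Endothelial markers summed to 1.4–2.5 CPM, with Kdr and Tek at or under 0.03 CPM in every library. Macrophage markers summed to 16.4–22.3 CPM, nearly all of it from Cd68 and Cd14, with Lyz2 and Csf1r at or under 0.05 CPM. Of these, Cd14 rose (0.32, edgeR adjusted p = 0.0246), whereas Cd68 had a negative value and did not pass (-0.28, edgeR adjusted p = 0.201). Fibroblast markers summed to 28.9–43.3 CPM, nearly all from Pdgfra, with Pdgfrb at or under 0.03 CPM. Mitochondrial transcripts took 3.63% to 6.02% of counts and were nearest within a pair. The part of these levels in the mitotic differences was not tested.

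The libraries held between 70263372 and 94216786 counts, so 3 counts corresponded to between 0.0323 and 0.0429 CPM, a floor that covers counting error only and lies far below every member. Reads were counted with a strand setting not given in the sources used here. In GENCODE M21, exons of 13 of the 40 genes overlap those of a gene on the opposite strand, among them Ube2c (592 of 2600 exon bases, with Tnnc2), Ccna2 (510 of 4083, with Exosc9) and Prc1 (911 of 8225, with Rccd1). Their values would include reads of the partner if strand was not used. Ccnb1, Cks2, Depdc1a and Pbk have near-identical pseudogenes, and those in the count table each had at most 2.94% of the gene's own count. Reads that match both a gene and its copy may be divided or left out, which these counts do not measure. For Cks2, 1 such pseudogene (Gm19945) had no count here.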

How the data were processed

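RNA of 4T1-T cells sorted by acLDL uptake was measured in 6 libraries, 3 per population. Per the labels and methods, the authors made stranded mRNA libraries, aligned the reads to mm10 with STAR (2.5.2a), counted them per gene with featureCounts (1.4.3-p1) and deposited raw counts for 53379 gene IDs. The annotation release is not given in the sources used here. A deposited table of the authors' own DESeq2 (1.20.0) comparison holds a mean signal, log2 fold changes with errors, a test score and p-values. It was used only for gene names and for the choice of 15973 protein-coding genes.

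The counts were fitted with edgeR (4.0.16, R 4.3.3): filterByExpr, TMM scaling, quasi-likelihood test, replicate number as a block, Benjamini-Hochberg adjustment over 12572 genes and a threshold of 0.05. Standard errors are the fold change (log2) over the root of F. Differences within pairs used a prior count of 2. The study's methods include replicate information, and the series design text gives 3 separate runs of the experiment. Same-numbered libraries deviated together, with correlations across genes of 0.795, 0.846 and 0.799, against -0.557 to -0.0882 otherwise. No library repeated another. With the block, p-values measure how the difference within a replicate number varied over the 3 replicates of 1 clone.

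Members and lists were chosen with earlier results of these data known. Library values are given, in each role, for the gene with the smallest p, the highest CPM and the lowest fold change, and for Ccnb1, Cdk1, Cdc20, Plk1, Aurka, Top2a and Mki67. In the other lists, genes past the threshold are named, or the 2 with the smallest p where none passed. A further list is not reported here. Foxm1, Mybl2 and the markers named fall outside this rule. The test was tested on simulated data with a log2 change of 1, larger than that of any member. With the block, 178 of 194 changed genes were recovered with 3 false calls. Recovery of differences as small as those of the members is not shown by it. Positions and exon lengths came from GENCODE M21 (GRCm38), near-identical copies from minimap2 (2.31-r1302, at least 95% identity over 200 bases), and promoters from RefSeq. Alternatives were other scalings, filters and tools (DESeq2 1.42.0, limma 3.58.1), no block, each replicate left out and a stricter threshold.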

Additional observations from a re-analysis of the deposited data

How the results depend on the processing

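The number of mitotic genes called higher moved by over 1.5 times under 3 settings: no replicate block (0), leaving out replicate 3 (8) and an adjusted p under 0.01 (13). It moved by less without replicate 1 (34) and without replicate 2 (22). The count over all genes was 597, and 0 without the replicate block, 932 with no low-count filter, 199 at an adjusted p under 0.01, and 126 to 869 with a replicate left out, lowest without replicate 3 and highest without replicate 2. The cause of these shifts was not tested, beyond the smaller number of samples or the stricter threshold. With DESeq2's size factors, upper quartile scaling, DESeq2 or limma-voom with the block, no filter, at least 10 counts in every library, or all gene IDs, between 24 and 32 of the 40 were called. The median fold change lay between 0.17 and 0.30 in every fit, and 0 members were called lower in any. Of 440 values of single members under alternatives, 368 kept their direction and side of the threshold, 55 lost the call (27 of them without the block and 24 with a replicate left out), 16 gained it, and 1 changed sign, Cdc20, which ranged from -0.019 without replicate 2 to 0.12 without replicate 1. The least counted member, Depdc1a, with as few as 1239 reads in a library, had the largest standard error, 0.072, against 0.041 at the smallest.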
